A study of Homo sapiens with 6 samples.

Results

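Microtubule-associated proteins (MAPs) that bind along the microtubule lattice, together with the kinase MARK4, were examined in A549 cells after knockdown of *CEP20*, a gene for a protein of centrioles and centriolar satellites. The 10 genes were chosen by symbol, with earlier results of these data known: MAP4, MAP2, MAP1A, MAP1B, MAP1S, MAP7, MAP7D1, MAP7D3, TPPP and MARK4. Each matched a single Ensembl row of the 60624 in the TPM table, and 9 of the 10 were among the 14778 genes tested. A549 is an established human lung adenocarcinoma line. RNA was sequenced from 3 siCEP20 samples, transfected with small interfering RNA (siRNA) against *CEP20*, and 3 siCTR samples, transfected with control siRNA. The labels give 3 days of transfection for both groups and no other treatment, although a further label field names a plasmid transfection. The labels do not say that the 3 samples of a group were separate cultures, so the p-values measure the spread between these samples, which may be technical. The sources used here do not state which of the siRNAs against *CEP20* was used.

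Structural MAPs coat the outer surface of the microtubule, protect it from disassembly and set which motors can walk on it. Their hold on the lattice is loosened by phosphorylation, and the MARK kinases, named as microtubule affinity-regulating kinases, phosphorylate the tubulin-binding repeats of tau, MAP2 and MAP4. MAP4 is the widely expressed relative of tau and MAP2, which are best known from axons and dendrites. MAP7 and its paralogs recruit kinesin-1, and MAP1A, MAP1B and MAP1S share a domain layout in which a heavy and a light chain are cut from 1 precursor.

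The targeted gene was lower in all siCEP20 libraries. The TPM of *CEP20* was 29.2, 30.5 and 35.1 in the siCTR samples and 16.2, 15.3 and 17.3 in the siCEP20 samples, a log2 fold change of -0.92 ± 0.0915 (SE, limma adjusted p = 0.000205). TPM, the transcript abundance used throughout, divides reads by transcript length and by the library total, so it can be compared between genes within a library, but the depth of each library is unknown. Between 14429 and 14987 genes had at least 1 TPM in a library. Fold changes are on the log2(TPM + 1) scale, which understates the change of genes at low TPM, and p-values were adjusted over all tested genes by Benjamini-Hochberg. A gene changed when its adjusted p was under 0.05, and it was called when its fold change was also over 1.5 or under 0.67. The two-sided exact permutation test of 3 samples against 3 cannot give less than p = 0.1, and it gave p = 0.1 for *CEP20* and for each of the 10 genes below.

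Of the epithelial markers, 3 keratins were abundant, with KRT7 at 3729 to 4506 TPM, KRT8 at 1535 to 2421 TPM and KRT18 at 1543 to 1896 TPM. These are ranges over the 6 libraries, in which KRT19 was at 69.0 to 89.8 TPM, CDH1 at 11.1 to 24.1 TPM and EPCAM at 0.834 to 3.85 TPM. All 6 epithelial markers rose, where 30.2% of all tested genes did. Their summed level was 7029 to 7333 TPM in siCTR and 8474 to 8709 TPM in siCEP20 samples. Since MAP2, MAP1A, MAP1B and TPPP are mainly known from brain, 10 neural markers were read as well. STMN2 was listed at 0 in every library, and ELAVL3, ELAVL4 and MOG stayed below 1 TPM, whereas RBFOX3 (20.6 to 38.5 TPM), SNAP25 (41.4 to 59.1 TPM) and MBP (30.0 to 50.6 TPM) were expressed. The summed neural level was 105.6 to 116.8 TPM in siCTR and 149.4 to 153.5 TPM in siCEP20 samples. Of the 6 neural markers tested, 3 were higher (RBFOX3, SNAP25 and MBP) and 2 lower (SYP and GFAP). Of all tested genes, 30.2% were higher and 13.2% lower. Of 11 markers of blood, endothelial and stromal cells, 7 stayed below 1 TPM in every library, CD3E and DCN among them at 0. The sum of the 11 was 43.7 to 54.4 TPM in siCTR and 111.6 to 130.4 TPM in siCEP20 samples, mostly from ACTA2, COL1A1 and CD68. These were the 3 tested, and all 3 rose, against 30.2% of all tested genes. The part of these movements in the results below was not tested.

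Of the 10 genes, 9 had all 3 siCEP20 values above all 3 siCTR values (38.4% of all tested genes did) and 1, MAP1A, had all 3 below (17% did). All 9 tested members rose at an adjusted p under 0.05, against 30.2% of all tested genes (13.2% fell), and 7 were called higher, against 11.2%. None was called lower by limma, against 4.61%, and none had a negative change at an unadjusted p under 0.05. The median log2 fold change of the 9 was 0.75, beside 0.13 for all tested genes. Because the set was chosen with earlier results of these data known, these comparisons are no independent test of it. MAP2 and TPPP reached a mean of 1 TPM only through their siCEP20 samples and therefore had to differ. Of the other 7 tested members, all 7 rose at an adjusted p under 0.05 and 5 were called, namely MAP4, MAP1S, MAP7, MAP7D1 and MARK4. The median log2 fold change of these 7 was 0.69.

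**Figure D1:**
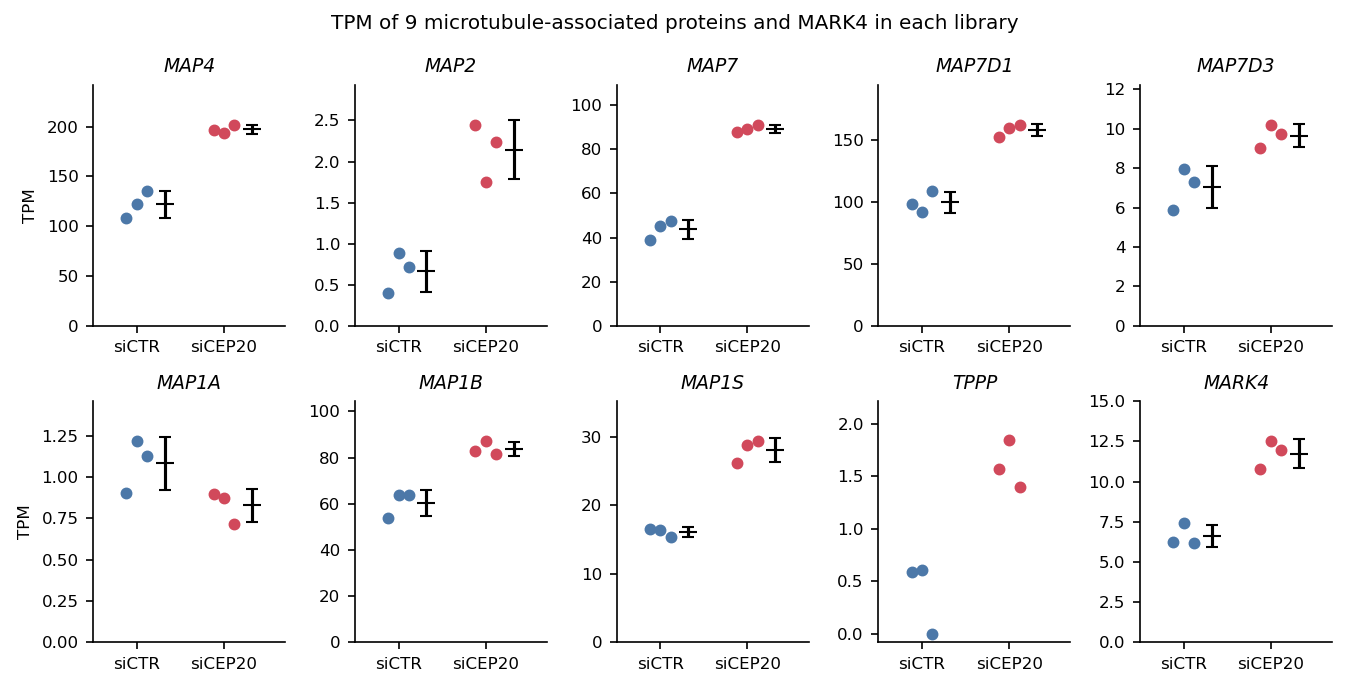
TPM (vertical axes, linear and different for each gene) of the 10 genes in the 3 siCTR and 3 siCEP20 libraries. Points are libraries and black bars mean ± SD, n = 3 each (not drawn for TPPP, listed at 0 in 1 library). In 9 genes the siCEP20 points lie above all siCTR points, and in MAP1A, at about 1 TPM, they lie below.

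The promoters are shown for MAP7, the member with the largest change on the log2(TPM + 1) scale, for the kinase MARK4, and for MAP1A, which lay lower. With a pseudocount of 0.1, the low-level members TPPP (log2 fold change 2.22) and MAP2 (1.60) changed more than MAP7 (1.03). The windows hold 250 bases before and 50 after a start site in RefSeq (GRCh38.p14), read in the direction of transcription. All 10 genes matched the table, and for each the window nearest the start of its canonical transcript was taken. Both strands were searched for the GC box (GGGCGG), the CCAAT box (CCAAT), an E-box (CACGTG), an AP-1 motif (TGANTCA) and a TATA box (TATAAA), none of which contains another, and capitals mark the matches, all of them GC boxes. MAP7 lies at chr6:136550373-136550672 (minus strand), MARK4 at chr19:45251021-45251320 (plus strand) and MAP1A at chr15:43517358-43517657 (plus strand).
MAP7: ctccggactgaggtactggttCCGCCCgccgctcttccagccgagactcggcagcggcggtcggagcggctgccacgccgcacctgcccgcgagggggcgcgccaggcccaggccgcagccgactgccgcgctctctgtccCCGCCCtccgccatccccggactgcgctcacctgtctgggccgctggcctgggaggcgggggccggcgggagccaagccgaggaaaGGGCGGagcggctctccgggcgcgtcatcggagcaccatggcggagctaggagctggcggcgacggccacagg
MARK4: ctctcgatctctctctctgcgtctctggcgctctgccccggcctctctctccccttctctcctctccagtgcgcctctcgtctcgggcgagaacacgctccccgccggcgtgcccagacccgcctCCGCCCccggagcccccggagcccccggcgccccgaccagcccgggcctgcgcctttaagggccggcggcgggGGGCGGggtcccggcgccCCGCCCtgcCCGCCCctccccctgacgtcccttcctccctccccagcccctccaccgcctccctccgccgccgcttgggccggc
MAP1A: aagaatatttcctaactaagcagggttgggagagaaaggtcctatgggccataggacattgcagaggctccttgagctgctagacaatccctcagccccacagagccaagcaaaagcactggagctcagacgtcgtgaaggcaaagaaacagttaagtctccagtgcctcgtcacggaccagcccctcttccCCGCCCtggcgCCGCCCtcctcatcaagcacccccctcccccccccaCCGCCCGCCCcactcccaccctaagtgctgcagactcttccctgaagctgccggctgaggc
The MAP7 window held 3 GC boxes and 39 CpG dinucleotides, the MARK4 window 4 and 35, and the MAP1A window 4 and 10. The median of all 35116 promoter windows was 14 CpG dinucleotides. A GC box was found in 45.0% of all windows and in those of 7 members (MAP1A, MAP1B, MAP1S, MAP7, MAP7D1, TPPP and MARK4). No GC box was found in the windows taken for MAP4, MAP2 and MAP7D3, of which those of MAP2 and MAP7D3 lie 155285 and 5082 bases from the canonical start. The MAP4 window (chr3:48016367-48016666, minus strand) lies at the canonical start but inside the gene, whose annotated span begins at 48089272 on that strand. It held 1 CpG dinucleotide. Only 1 of 2 listed windows was taken for MAP4, and 1 of 3 for MAP2. Among the called members, only the windows taken for MAP4 and MAP2 thus had no GC box, and the uncalled MAP1B had 3.

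MAP4 was the most abundant member. Its TPM was 108.1, 122.4 and 135.5 in siCTR and 196.2, 193.3 and 201.8 in siCEP20 samples. The siCEP20 values lay close together and all above the highest control. MAP4 (ENSG00000047849, hg38 chromosome 3 from 47850690 to 48089272, minus strand) rose (122 ± 13.7 against 197.1 ± 4.34 TPM, mean ± SD, n = 3 each), with a log2 fold change of 0.69 ± 0.0814 (SE, limma adjusted p = 0.000421), or 0.56 against the median change of all genes tested. MAP2, its neuronal relative, was near the lower limit of the table. It stood at 0.396, 0.887 and 0.712 TPM in siCTR and at 2.45, 1.75 and 2.24 TPM in siCEP20 samples, separate groups with a log2 fold change of 0.92 ± 0.19 (SE, limma adjusted p = 0.0058), or 0.79 relative to all tested genes. Because MAP2 passed the filter only through its siCEP20 samples, its groups had to differ. Without the filter its adjusted p was 0.018 from limma. The mean of MAP2 was 3.23 times the control mean, yet far below the level of MAP4 in both groups. MAPT (tau) ran from 2.28 to 4.25 TPM in siCTR and from 1.21 to 6.63 TPM in siCEP20 samples. The groups of MAPT overlapped and its 95% interval of log2 change, from -0.85 to 1.02, left either direction possible.

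In the MAP7 family, MAP7 itself changed most. MAP7, also called ensconsin, was at 38.9, 45.1 and 47.4 TPM in siCTR and at 87.7, 89.1 and 91.1 TPM in siCEP20 samples. No siCTR value came near the siCEP20 values, which spanned under 4 TPM. MAP7 (ENSG00000135525, chromosome 6 from 136342281 to 136550819, minus strand) rose (43.8 ± 4.41 against 89.3 ± 1.73 TPM, mean ± SD, n = 3 each), 2.04 times the control mean, with a log2 fold change of 1.02 ± 0.0803 (SE, limma adjusted p = 7.78e-05), or 0.88 relative to all tested genes. It was the 1 member whose fold change exceeded 2 on the log2(TPM + 1) scale.

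MAP7D1, a paralog of MAP7, was at 97.9, 92.0 and 108.3 TPM in siCTR and at 152.3, 159.4 and 162.0 TPM in siCEP20 samples. It was the second most abundant member in both groups. MAP7D1 (ENSG00000116871, chromosome 1 from 36155579 to 36180849) had a log2 fold change of 0.67 ± 0.0702 (SE, limma adjusted p = 0.000258), or 0.53 relative to all tested genes. The X-linked paralog MAP7D3 was at 5.87, 7.95 and 7.30 TPM in siCTR and at 9.03, 10.2 and 9.72 TPM in siCEP20 samples. The groups of MAP7D3 did not overlap, but the gap between them was about 1 TPM. Its log2 fold change of 0.41 ± 0.12 (SE, limma adjusted p = 0.0248) did not reach the 1.5-fold threshold, and it was 0.28 relative to all tested genes. The remaining paralog MAP7D2, no member of the set, went from 7.69 ± 0.82 to 10.4 ± 1.08 TPM (SD, n = 3 each; log2 fold change 0.40, adjusted p = 0.0224 from limma).

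Shares within a library do not depend on how libraries are scaled against each other. MAP7 made up 25.9%, 29.6% and 27.6% of the summed TPM of MAP7, MAP7D1, MAP7D2 and MAP7D3 in siCTR samples and 33.8%, 33.0% and 33.5% in siCEP20 samples. MAP7D1 made up 65.3%, 60.4% and 63.1% against 58.7%, 59.0% and 59.5%. Neither pair of ranges overlapped. The shares of MAP7D2 and MAP7D3 were likewise lower in all siCEP20 samples, at 3.46% to 4.28% against 4.70% to 5.03% and at 3.48% to 3.77% against 3.91% to 5.22%. The log2 ratio of MAP7 to MAP7D1 was -1.18 ± 0.15 in siCTR and -0.82 ± 0.023 in siCEP20 samples (SD, n = 3 each), and that of MAP7 to MAP7D3 2.64 ± 0.12 and 3.21 ± 0.0784. For both the two-sided exact permutation test gave its smallest possible value, p = 0.1. The ratio of MAP7D1 to MAP7D3 was not distinguishable between the groups (difference of log2 ratios 0.21, exact permutation test, p = 0.3).

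**Figure D2:**
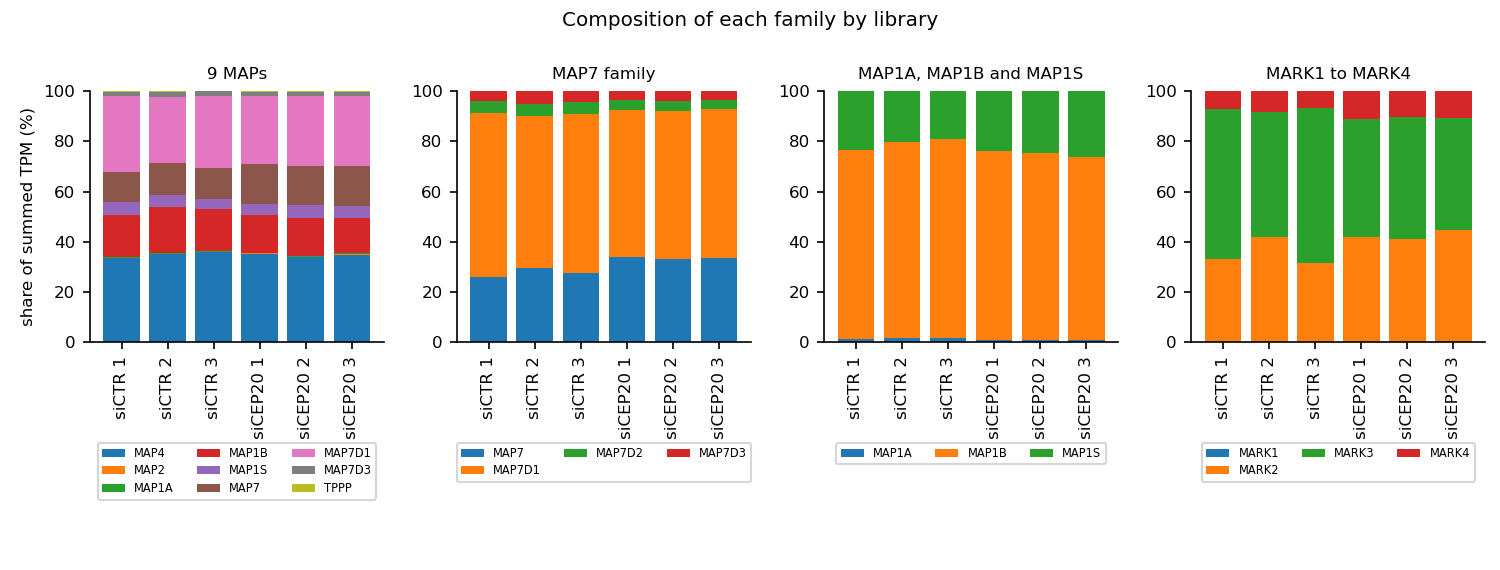
Share of summed TPM (vertical axis, percent) that each gene held in each of the 6 libraries, for the 9 MAPs, the MAP7 family, the MAP1 genes and MARK1 to MARK4. MAP7 held 33.0% to 33.8% of its family in siCEP20 libraries against 25.9% to 29.6% in siCTR libraries, and MARK4 10.3% to 11.3% of the MARK genes against 6.51% to 8.20%.

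Of the 3 genes of the MAP1 family, MAP1B and MAP1S rose and MAP1A was not tested. MAP1B, which carries light chain 1 of this family and is prominent in growing axons, was at 53.7, 63.7 and 63.7 TPM in siCTR and at 83.0, 87.1 and 81.4 TPM in siCEP20 samples. Its lowest siCEP20 value was 17.7 TPM above its highest control. MAP1B (ENSG00000131711, chromosome 5 from 72107234 to 72209565) rose by a log2 fold change of 0.47 ± 0.0798 (SE, limma adjusted p = 0.00225), or 0.34 relative to all tested genes, without passing 1.5-fold.

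MAP1S, the short and widely expressed member of the family, was at 16.6, 16.5 and 15.3 TPM in siCTR and at 26.2, 28.9 and 29.4 TPM in siCEP20 samples. Its lowest siCEP20 value was 9.61 TPM above its highest control. MAP1S (ENSG00000130479, chromosome 19 from 17719242 to 17734513) rose (16.1 ± 0.67 against 28.1 ± 1.73 TPM, mean ± SD, n = 3 each), with a log2 fold change of 0.77 ± 0.0783 (SE, limma adjusted p = 0.000227), or 0.63 relative to all tested genes.

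MAP1A, the form of adult neurons, was the 1 member with lower values in all siCEP20 samples. Its TPM was 0.906, 1.22 and 1.13 in siCTR and 0.899, 0.872 and 0.713 in siCEP20 samples. The siCEP20 values lay lower, but the highest of them was within 0.01 TPM of the lowest control. The mean over all libraries, 0.955 TPM, was just under the filter, so that MAP1A (ENSG00000166963, chromosome 15 from 43510958 to 43531620) was not among the tested genes. Without the filter its log2 fold change was -0.19 with a 95% interval from -0.45 to 0.08 (adjusted p = 0.329 from limma), and no change was detectable at this level. As a share of MAP1A, MAP1B and MAP1S, it was 1.27%, 1.49% and 1.40% in siCTR and 0.816%, 0.746% and 0.640% in siCEP20 samples, while MAP1S was 19.1% to 23.3% and 23.8% to 26.3% (two-sided exact permutation tests, p = 0.1 each).

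TPPP, the tubulin polymerization promoting protein best known from oligodendrocytes, was listed at 0.587, 0.605 and 0 TPM in siCTR and at 1.57, 1.85 and 1.40 TPM in siCEP20 samples. All siCEP20 values exceeded 1 TPM and no siCTR value did. The mean of all 6, 1.001 TPM, passed the filter by a small margin and only through the siCEP20 samples. TPPP (ENSG00000171368, chromosome 5 from 659862 to 693352, minus strand) had a log2 fold change of 0.93 with the widest standard error of the set, 0.24 (adjusted p = 0.0144 from limma). The value of 0 in siCTR replicate 3 can be a failed estimate, and without that library the log2 fold change of TPPP was 0.70 (adjusted p = 0.0269 from limma). Without siCEP20 replicate 2 its adjusted p was 0.0506. Of its paralogs, TPPP3 was at 2.28 to 3.33 TPM in siCTR and 3.37 to 4.12 TPM in siCEP20 samples (adjusted p = 0.152 from limma) and TPPP2 was listed at 0 throughout.

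MARK4 was at 6.25, 7.42 and 6.17 TPM in siCTR and at 10.8, 12.5 and 11.96 TPM in siCEP20 samples. The lowest siCEP20 value was 3.34 TPM above the highest control. MARK4 (ENSG00000007047, chromosome 19 from 45079288 to 45305284) rose (6.61 ± 0.70 against 11.7 ± 0.89 TPM, mean ± SD, n = 3 each), with a log2 fold change of 0.75 ± 0.11 (SE, limma adjusted p = 0.00102), or 0.61 relative to all tested genes. MARK2 went from 32.3 ± 4.67 to 46.6 ± 5.79 TPM (SD, n = 3 each, log2 fold change 0.52, adjusted p = 0.0106 from limma). MARK3, the most abundant of these kinases, had overlapping groups at 52.6 ± 6.84 and 51.4 ± 7.37 TPM, with a 95% interval of log2 change from -0.32 to 0.25. MARK1 stayed below 0.2 TPM. MARK4 thus held 6.99%, 8.20% and 6.51% of the summed TPM of MARK1 to MARK4 in siCTR samples and 11.3%, 10.3% and 10.7% in siCEP20 samples, and MARK3 50.1% to 62.2% against 44.8% to 48.6% (two-sided exact permutation tests, p = 0.1 each). The log2 ratio of MARK4 to MARK2 was -2.28 ± 0.0531 and -1.98 ± 0.0854 (SD, n = 3 each, two-sided exact permutation test, p = 0.1).

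The summed TPM of the 9 MAPs was 322.9, 350.3 and 379.3 in siCTR and 559.3, 572.4 and 579.8 in siCEP20 samples, 1.63 times the control mean. The shares of MAP4 and MAP7D1, the most abundant of them, overlapped between the groups. MAP4 held 33.5% to 35.7% of it in siCTR and 33.8% to 35.1% in siCEP20 samples (p = 0.9, two-sided exact permutation test), and MAP7D1 26.3% to 30.3% and 27.2% to 27.9% (p = 0.7 from the same exact test). MAP7 held 12.04% to 12.88% in siCTR and 15.6% to 15.7% in siCEP20 samples, and MAP1B 16.6% to 18.2% and 14.04% to 15.22%, with separate ranges in both genes (two-sided exact permutation tests, p = 0.1 each). The rarest of the 9 had shares that differed by more than the sum did in proportion. MAP2 held 0.123% to 0.253% in siCTR and 0.306% to 0.438% in siCEP20 samples, and MAP1A 0.281% to 0.347% and 0.123% to 0.161% (two-sided exact permutation tests, p = 0.1 each). TPPP held 0.182%, 0.173% and 0% in siCTR and 0.280%, 0.323% and 0.242% in siCEP20 samples. Over the 20 shares compared, p = 0.1 from the exact permutation test became 0.133 after Benjamini-Hochberg adjustment.

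In siCTR samples the order of levels was MAP4, MAP7D1, MAP1B, MAP7, MAP1S, MAP7D3, MARK4, MAP1A, MAP2 and TPPP. The ranges of MAP4 and MAP7D1 overlapped between libraries, but MAP4 was the higher in each of the 3. Those of MAP7D3 and MARK4 and those of MAP2 and TPPP also overlapped, and their order was not the same in every library, so these neighbours did not differ beyond their spread. In siCEP20 samples MAP7 stood above MAP1B and MARK4 above MAP7D3, each with ranges that did not overlap, and MAP1A was last. MAP2 and TPPP were then the only neighbours with overlapping ranges.

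**Figure D3:**
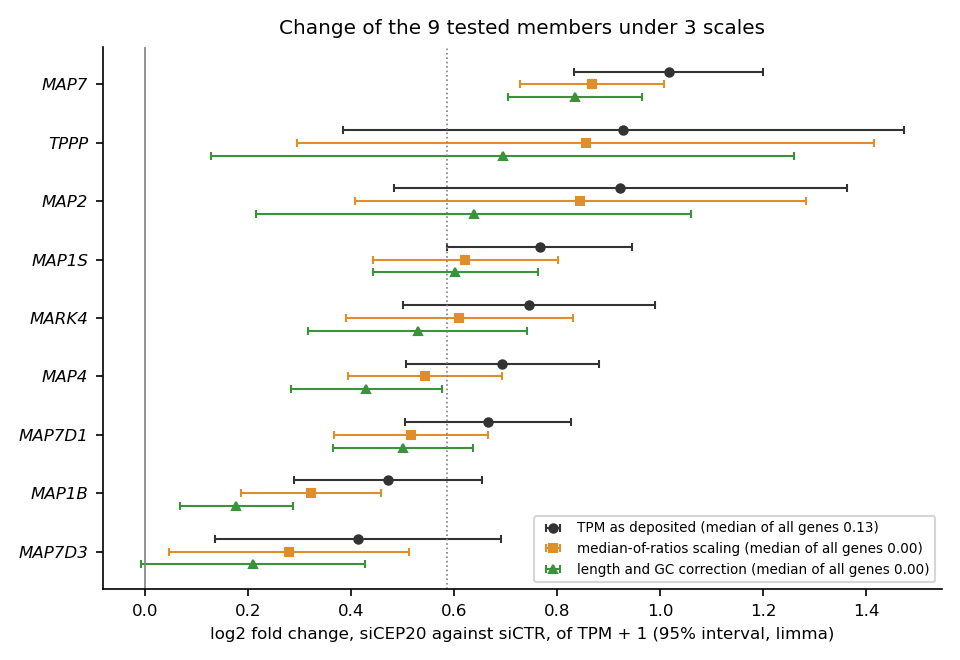
Log2 fold change of TPM + 1 (horizontal axis) of the 9 tested members with 95% intervals from limma, with TPM as deposited, after median-of-ratios scaling and after a length and GC correction. The dotted line marks 1.5-fold. MAP7 lies beyond it with its whole interval on each scale. The estimates of MAP1B and MAP7D3 lie below it on each, but as deposited their intervals reach past it.

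The size of the rise depended on the scale between libraries. Median-of-ratios scaling moved the median change over all tested genes (log2) from 0.13 to 9.42e-05 and left 5 members called higher, against 6.05% of all tested genes (44.8% of all calls were then higher, against 70.9% as deposited). Without MAP2 and TPPP, 3 of the 7 others were called. MAP4 (log2 fold change 0.54) and MAP7D1 (0.52) then lay below 1.5-fold. At an adjusted p under 0.05 alone, 8 of the 9 were higher, against 20.1% of all tested genes, the exception being MAP7D3 (log2 fold change 0.28, adjusted p = 0.0581 from limma). The 8 include MAP2 and TPPP, which passed the filter only through their siCEP20 samples. Every fitted change of the 9 kept its sign under each alternative.

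Transcript length moved with the changes. Over 14737 tested genes with a known canonical transcript, the log2 fold change and the log2 length had a Pearson's r of 0.24, a description across genes, which share the same 6 libraries. The canonical transcripts of the 10 members run from 3288 bases (MAP1S) to 11790 bases (MAP1B). Of the 6281 tested genes at least as long as MAP1S, 14% were called higher and 1.42% lower, and the median change was 0.22 on the log2 scale. Of the 702 genes longer than 9000 bases, among which are MAP4 (9232), MAP2 (9650) and MAP1B (11790), 17.8% were called higher, with a median of 0.28. After a loess correction for length and GC content in each library, 3 members were called higher, against 6.25% of all tested genes, namely MAP7 (log2 fold change 0.84), MAP2 (0.64) and MAP1S (0.60). Without MAP2 and TPPP, 2 of the 7 others were called. MARK4 then had 0.53, MAP7D1 0.50 and MAP4 0.43, all at an adjusted p under 0.05 but below 1.5-fold, and MAP1B had 0.18 (adjusted p = 0.0197 from limma). TPPP (log2 fold change 0.69, adjusted p = 0.0538 from limma) and MAP7D3 (0.21, adjusted p = 0.111) no longer passed, although TPPP stayed above 1.5-fold. By adjusted p alone, 7 members were higher after this correction, against 20.3% of all tested genes. The 7 include MAP2, which passed the filter only through its siCEP20 samples. The origin of the dependence on length was not tested.

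**Figure D4:**
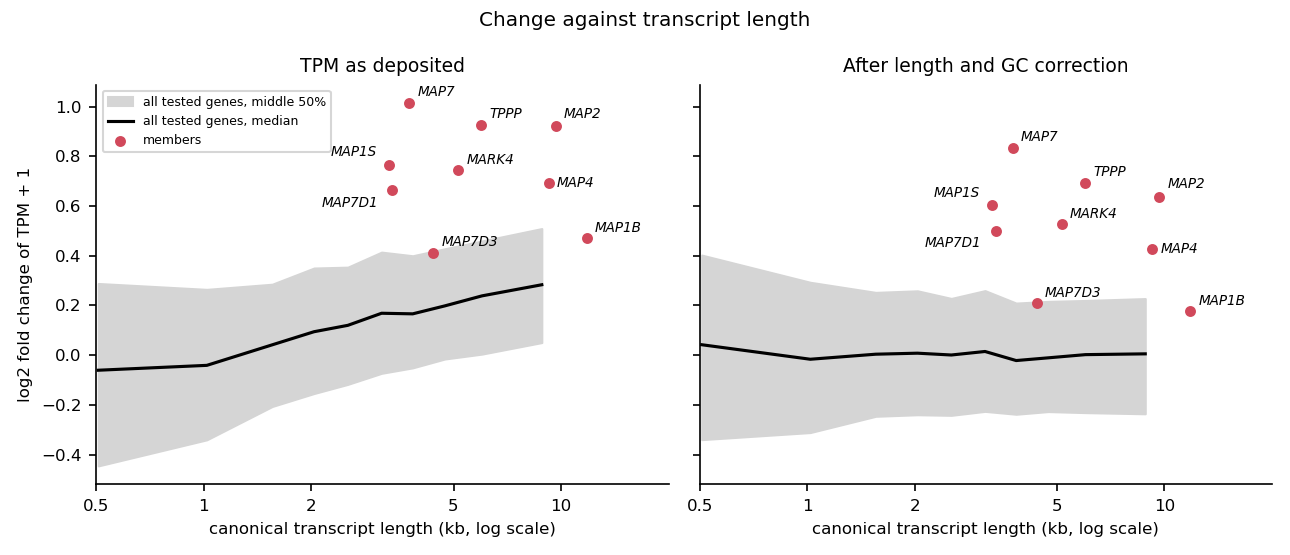
Log2 fold change of TPM + 1 (vertical axis) against canonical transcript length (horizontal axis, kilobases, log scale) before and after the length and GC correction. Points are the 9 tested members, and the line and band are the median and middle 50% of tested genes in 10 classes of length; the median runs from -0.06 in the shortest to 0.28 in the longest class as deposited, and after correction it lies between -0.02 and 0.04.

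Some exons of the members overlap those of other genes, and how reads there were assigned was not examined. Of the expressed genes in the annotation (GENCODE release 44, hg38), GEMIN7 covered 90 exonic bases of MARK4 (1.35%) on the same strand, CEP72 covered 404 bases of TPPP (6.76%) on the opposite strand, and TRAPPC3 covered 89 bases of MAP7D1 (1.69%) on the opposite strand. GEMIN7 was at 73.4 to 82.9 TPM in siCTR and 55.5 to 62.1 TPM in siCEP20 samples, CEP72 at 10.7 to 13.1 and 9.21 to 9.66 TPM, and TRAPPC3 at 96.8 to 107.5 and 88.8 to 96.1 TPM. CEP72 was thus far more abundant than TPPP, which was at most 0.605 TPM in siCTR samples, and the part of shared reads in the values of TPPP was not tested. Although the libraries marked strand, whether quantification used it is not given in the sources used here. PPP1R37, TRAPPC6A, BLOC1S3 and EXOC3L2 lie within the span of MARK4 without sharing exonic bases.

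The mRNAs of related microtubule genes were read from 4 lists. Of 31 other lattice-binding MAPs, 24 were tested, with a median log2 fold change of 0.34 beside 0.13 for all tested genes; 14 were higher and 2 lower (EML2 and EML3) at an adjusted p under 0.05, where 30.2% of all tested genes were higher and 13.2% lower. Of the 24, 2 were called higher (MTUS1 and DLGAP5) and 1 lower (EML2), against 11.2% and 4.61% of all tested genes. MTUS1, a microtubule-associated scaffold, rose (45.7 ± 7.09 against 75.7 ± 2.86 TPM, mean ± SD, n = 3 each), with a log2 fold change of 0.73 (adjusted p = 0.00103 from limma). EML2 fell from 90.3 ± 8.16 to 57.3 ± 6.09 TPM (log2 fold change -0.65, adjusted p = 0.00121 from limma), the largest decrease of the list, and was not called without siCEP20 replicate 1. MTCL1, a microtubule crosslinking factor, went from 25.7 ± 1.63 to 36.7 ± 2.47 TPM (log2 fold change 0.50, adjusted p = 0.00175 from limma). MAP6, known from the cold-stable microtubules of neurons, was at 1.27 to 1.87 TPM with overlapping groups.

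A list of 21 genes held MARK1 to MARK3, activators of the MARK kinases, the 14-3-3 adaptors (YWHA genes and SFN) that bind phosphorylated MARK, and PRKCZ, PRKCI and USP9X. Of these, 20 were tested, with a median log2 fold change of 0.22. At an adjusted p under 0.05, 8 rose and 2 fell, against 30.2% and 13.2% of all tested genes. Of the 20, 2 were called higher (YWHAH and TAOK3), against 11.2%, and 0 lower. YWHAH went from 73.3 ± 2.97 to 142.8 ± 5.30 TPM (SD, n = 3 each, log2 fold change 0.95, adjusted p = 3.87e-05 from limma). YWHAE changed by 0.46 on the log2 scale (adjusted p = 0.000545 from limma) and SFN 0.43 (adjusted p = 0.000827). The 2 lower genes, named after their values were seen, were YWHAZ (524 ± 32.01 to 376 ± 24.7 TPM) and STK11 (46.2 ± 0.86 to 38.6 ± 2.68 TPM, SD, n = 3 each). STK11 encodes LKB1, the upstream kinase that activates the MARKs and whose gene is known to be mutated in A549.

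Of the 7 genes of kinesin-1, the motor that MAP7 recruits, 5 were tested. Their median log2 fold change was 0.01, beside 0.13 for all tested genes. KIF5B, the widely expressed heavy chain, was the 1 gene of the 5 to rise, against 30.2% of all tested genes. It went from 46.3 ± 2.43 to 61.7 ± 3.10 TPM (SD, n = 3 each, log2 fold change 0.41, adjusted p = 0.00228 from limma). None of the 5 fell at an adjusted or an unadjusted p under 0.05, where 13.2% of all tested genes fell at an adjusted p. KIF5C, too low to be tested, was at 0.435 to 0.785 TPM in siCTR and 0.197 to 0.345 TPM in siCEP20 samples. The light chain genes KLC1 (95.02 ± 5.92 and 95.9 ± 2.79 TPM) and KLC4 (11.3 ± 0.70 and 11.7 ± 1.19 TPM) had overlapping groups.

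Of 17 destabilizers, which sever or depolymerize microtubules, 13 were tested, with a median log2 fold change of 0.24; 5 rose and 1 fell at an adjusted p under 0.05, against 30.2% and 13.2% of all tested genes. Of the 13, 2 were called higher (KIF18A and KATNAL2), against 11.2%, and 0 lower. The depolymerizing kinesin genes KIF2A (30.7 ± 2.93 to 44.4 ± 1.27 TPM, log2 fold change 0.52, adjusted p = 0.00147 from limma) and KIF18A (5.19 ± 1.15 to 9.12 ± 0.92 TPM, log2 fold change 0.72, adjusted p = 0.0055) rose, and STMN3, a stathmin, fell from 10.7 ± 0.45 to 7.93 ± 0.45 TPM (SD, n = 3 each; log2 fold change -0.39, adjusted p = 0.00892). With TPM as deposited, the 4 lists had medians between 0.01 and 0.34, beside 0.75 for the 9 tested members. Without MAP2 and TPPP, which passed the filter only through their siCEP20 samples, the median of the 7 others was 0.69. Single genes of the lists, such as YWHAH, MTUS1 and KIF18A, lay above the lowest member (0.41). The difference between the members and these lists was not tested.

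**Figure D5:**
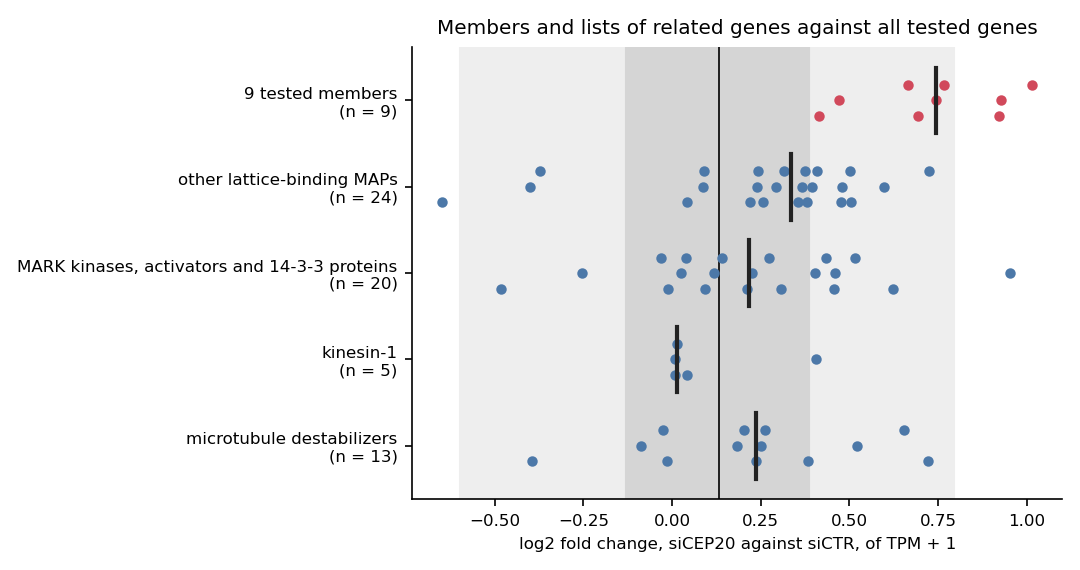
Log2 fold change of TPM + 1 (horizontal axis) of the 9 tested members and of the tested genes in 4 lists of related genes. Points are genes, thick bars list medians, the thin line the median of all tested genes (0.13), and the grey bands their middle 50% and 90%. Members lie from 0.41 to 1.02 with a median of 0.75 (0.69 without MAP2 and TPPP), and list medians from 0.01 to 0.34. Some points of the lists lie above the lowest member.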

How the data were processed

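RNA-seq of A549 cells (3 siCEP20 and 3 siCTR samples) was analysed. Per the labels and the paper's methods, the authors trimmed reads with fastp (0.20.1), aligned them to hg38 with HISAT2 (2.1.0) and deposited 1 table of gene-level TPM from StringTie (2.0). The annotation release is not given in the sources used here. Columns were mapped to samples by name. Depth is unknown, and the 3 samples a group limit the precision.

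Of 60624 Ensembl IDs, 60370 matched GENCODE release 44. Genes averaging 1 TPM or more were tested on log2(TPM + 1) by moderated linear models (limma 3.58.1, R 4.3.3, trended eBayes), with no block, and adjusted by Benjamini-Hochberg across all tested genes. The authors' count-based test needs counts, which were not analysed here. The calling thresholds follow the study's methods. Shares were compared by two-sided exact permutation tests (scipy 1.17.1). Ensembl canonical transcripts gave length and GC content, and the correction subtracted a loess curve (span 0.5) from each library's deviations. The steps were tested on simulated data.

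The members and gene lists were chosen with earlier results of these data known. The genes named were CEP20, the members, MARK1 to MARK3, MAPT, MAP6, MAP7D2, TPPP2, TPPP3, the 3 genes of each microtubule list with the smallest adjusted p, expressed genes overlapping a member, and markers at the extremes of their list. Other markers, YWHAZ, STK11, TAOK3, KATNAL2, DLGAP5, EML3, MAP6D1, KIF5C, PRKCZ, PRKCI and USP9X were named after their values were seen. A further neural marker is not reported here.

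Other settings tried were median-of-ratios scaling, quantile normalization, the length and GC correction, a pseudocount of 0.1, a minimum of 2 TPM or none, an untrended fit, a block for the replicate number, protein-coding genes only, other fold thresholds, and leaving out each library.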

Additional observations from a re-analysis of the deposited data

How the results depend on the processing

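As deposited, 7 members were called higher (11.2% of all tested genes were). The number was 6 with a pseudocount of 0.1 (12.8% of all genes) and with quantile normalization (6.25%), 5 with median-of-ratios scaling (6.05%) and with a minimum of 2 TPM (11.4%, 7 members tested), 3 after the length and GC correction (6.25%), 9 without a fold threshold (30.2%) and 1 at a fold change of 2 (1.77%). It was 7 without the filter (5.29%), with an untrended fit (11%) and over protein-coding genes (11.6%). With each library left out the members numbered 6 to 7 (9.28% to 12.8% of all genes), and no member was called lower under any alternative. These counts include MAP2 and TPPP, which passed the filter only through their siCEP20 samples. Of the 7 others, 5 were called as deposited and with a pseudocount of 0.1. The number was 4 with quantile normalization, 3 with median-of-ratios scaling and 2 after the length and GC correction. The log2 fold change of CEP20 lay between -0.97 and -0.84 with 1 library left out.

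In the 4 lists of related microtubule genes together, 6 of 62 tested genes were called higher and 1 lower (11.2% and 4.61% of all tested genes). These became 2 and 2 with median-of-ratios scaling (6.05% and 7.46%), 2 and 1 with quantile normalization (6.25% and 6.88%), 1 and 2 after the length and GC correction (6.25% and 5.81%), 28 and 5 without a fold threshold (30.2% and 13.2%), and 0 and 0 with a fold change of 2 (1.77% and 0.995%). With 1 library left out the ranges were 4 to 7 and 0 to 2. The lower count was 2 without siCTR replicate 3 and 0 without siCEP20 replicate 1, when EML2 was no longer called; the added gene without siCTR replicate 3 was MAP6D1.

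The length and GC correction moved the difference in share (siCEP20 minus siCTR, percentage points) of MAP1A among the MAP1 genes from -0.66 to -0.80, of MAP1A among the 9 MAPs from -0.16 to -0.20, of MAP7 among the 9 MAPs from 3.18 to 3.56, and of MARK1 among the MARK genes from 0.025 to -0.096. No other difference in share moved by more than the spread between replicates. With 1 library left out, the difference ranged from 4.79 to 6.65 for MAP7 in its family and from 3.14 to 3.98 for MARK4 among the MARK genes, and for MAP4 and MAP7D1 among the 9 MAPs it took either sign.

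Samples with the same number shared only that number: the correlation of their deviations from the group means was 0.16, -0.061 and -0.062. With the number as a replicate block, 7 members were called higher and 0 lower. Depth is unknown, and of the tested members TPPP and MAP2, near 1 TPM, had the largest standard errors.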
